A study of Mus musculus with 22 samples.

Results

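Of 23588 autosomal bins of 100 kb, the 2358 with the lowest DNA methylation in wild-type E14.5 liver are described here. A bin entered when at least 100 of its CpGs were covered by 6 or more reads in all 12 bisulphite libraries, and its methylation was the percentage of methylated reads summed over those CpGs (%mCG). The bins were ranked by the mean of the 2 wild-type E14.5 livers, and the lowest 10% were kept. Their wild-type E14.5 values, from 5.35% to 48.0%, therefore chose them and are given as a description only. They covered 235.8 Mb and held 1866613 of the 12756043 covered CpGs (14.6%).

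Methylation of the cytosine in a CpG is set and copied by DNA methyltransferases and is high over most of the mammalian genome. CpG-dense stretches, many of them at gene starts, are commonly kept free of methylation, and long unmethylated tracts are known over developmental gene clusters such as the Hox genes. Fetal liver at mid-gestation is a site of red cell production, in which erythroid precursors outnumber hepatoblasts, and the DNA of maturing erythroblasts loses methylation widely.

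The study asked how loss of Rlf, a zinc finger protein found in a screen for modifiers of transgene silencing, alters methylation. All mice were of the inbred FVB/NJ strain, of a transgenic line named Line3, and carried a multi-copy GFP transgene under a human alpha-globin promoter, mutants and controls alike, and the mutants were homozygous for MommeD28, a null allele induced by N-ethyl-N-nitrosourea. Bisulphite libraries were made from whole embryos at E10.5 and from liver at E14.5 and at E18.5, each stage with 2 mutants and 2 wild types. RNA-seq used 3 mutant and 3 wild-type livers of E14.5. The E10.5 embryos were labelled male and the E18.5 livers female, while the E14.5 livers were 1 male and 1 female of each genotype for bisulphite sequencing and 2 males and 1 female for RNA-seq. Stage, tissue and sex thus cannot be told apart between E10.5 and E18.5. Nothing in the labels says which samples other than the E14.5 littermates came from separate litters, so p-values measure at most the spread between these samples.

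The libraries held on average 15.7 to 34.9 reads per listed autosomal CpG, with the E14.5 livers the deepest, and 0.0412% to 0.0775% of lambda cytosines, which carry no methylation, were read as unconverted. Some libraries stood apart within their groups. The mutant E18.5 replicate 1 averaged 69.4% over the other bins against 65.5% in mutant replicate 2 and 65.3% and 65.8% in the wild-type livers. The wild-type E14.5 livers, which chose the bins, had 58.5% and 61.1% there. In the members, wild-type E10.5 replicate 1 had 48.4% against 50.7% in replicate 2. RNA-seq library totals were 12928313 to 14621004 counts. In wild-type E14.5 liver RNA the 10 erythroid markers summed to between 30334 and 52723 CPM (counts scaled to the library total) and the 10 hepatoblast markers to between 59222 and 67539. All genes of both lists reached 1 CPM, and 3 of 4 brain markers (Snap25, Neurod1 and Syt1) did not. Rlf RNA was 68.3, 74.8 and 68.5 CPM in the wild-type and 76.0, 79.4 and 67.5 CPM in the mutant livers, so its RNA level did not separate the genotypes and does not check the labels of a null allele of this kind.

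The bins did not have the form of broad domains of low methylation. Of 1940 runs of adjacent members, 1650 were single bins, and 1 run reached 7 bins. Most members were rich in CpG-dense positions. A CpG was counted as CpG-dense when at least 10 listed CpGs, itself included, lay within 100 bp to either side. The members held 35.7% of all CpG-dense positions against 14.6% of all covered CpGs. A median member had 759 covered CpGs and 190.5 CpG-dense ones, and a median other bin had 431 and 14.

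The tract below is from the bin with the lowest value of all, which spans most of the HoxA cluster, and is shown with tracts from the members at the other extremes of the data. Each is the window of 200 bp in its bin with the most covered CpGs and no annotated exon, read from the NCBIM37 (mm9) plus strand, with every CG in capitals.
HoxA, lowest bin, chr6:52158745-52158944: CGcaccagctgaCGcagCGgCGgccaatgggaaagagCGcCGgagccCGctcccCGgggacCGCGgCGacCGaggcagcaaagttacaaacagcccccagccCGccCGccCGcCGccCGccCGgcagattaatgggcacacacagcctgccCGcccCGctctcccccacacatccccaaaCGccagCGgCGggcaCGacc
B3gnt3, member with the largest rise from E10.5 to E18.5, chr8:74225385-74225584: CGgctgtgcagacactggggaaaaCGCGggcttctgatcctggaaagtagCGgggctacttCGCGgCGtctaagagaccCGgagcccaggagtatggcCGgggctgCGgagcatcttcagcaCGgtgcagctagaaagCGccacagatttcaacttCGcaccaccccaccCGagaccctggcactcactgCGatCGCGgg
Rbmxl2, member with the largest genotype difference in E10.5 embryos, chr7:114352716-114352915: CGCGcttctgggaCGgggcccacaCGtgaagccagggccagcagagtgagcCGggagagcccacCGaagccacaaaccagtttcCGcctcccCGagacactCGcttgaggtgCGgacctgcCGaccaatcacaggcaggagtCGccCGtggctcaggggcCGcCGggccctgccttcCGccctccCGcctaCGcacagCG
Vmn1r229, member with the largest fall from E10.5 to E18.5, chr17:20962591-20962790: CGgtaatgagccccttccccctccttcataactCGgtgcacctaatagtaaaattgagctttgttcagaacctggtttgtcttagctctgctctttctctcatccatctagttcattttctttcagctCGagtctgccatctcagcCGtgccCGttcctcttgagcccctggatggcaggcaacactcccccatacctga
Immunoglobulin heavy chain region, member with no CpG-dense position, chr12:115262016-115262215: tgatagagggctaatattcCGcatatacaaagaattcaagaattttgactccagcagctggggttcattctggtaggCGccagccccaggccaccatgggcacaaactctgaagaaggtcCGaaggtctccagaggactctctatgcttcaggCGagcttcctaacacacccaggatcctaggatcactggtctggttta

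The HoxA window lay in an intron of the annotated Hoxa3 and held 24 CpGs. Its 24 CpGs averaged 0.116% and 0% in the wild-type E10.5 embryos, 0.392% and 2.24% in the wild-type E14.5 livers, and 2.15% and 2.95% in the wild-type E18.5 livers. The window nearest to Vmn1r229, a vomeronasal receptor gene that starts 11231 bp away, held 5 CpGs. It had 71.0% and 71.6% in the wild-type E10.5 embryos, 48.2% and 56.7% in the E14.5 livers and 49.6% and 53.0% in the E18.5 livers. The window from the immunoglobulin region lay 239046 bp from the nearest protein-coding start, Gm7112. It held 5 listed positions, of which 4 are CG in the reference, and averaged 67.6% in wild types at E10.5, 47.0% at E14.5 and 46.0% at E18.5. The HoxA window was low at each stage, and both CpG-poor windows were lower in the livers than in the embryos. Their bins were picked for low wild-type E14.5 values or for the largest fall, so this in part restates the choice.

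When all bins were ordered by the share of their covered CpGs that were CpG-dense and cut into 10 equal groups, 1529 of the 2358 members fell in the densest group, where they made up 64.8% of the bins. A further 546 fell in the next group (23.1%). The 5 groups with the lowest shares held 2 to 13 members each. The mean wild-type E14.5 methylation of the densest group was 44.4% over all CpGs and 60.5% over the CpG-sparse positions alone, and that of the sparsest group was 59.4%. Across all bins the Spearman correlation of wild-type E14.5 methylation with the share of CpG-dense positions was -0.39 (23588 bins), and among the members it was -0.54 (2358 bins). Bins share libraries, depth and base composition, so these values describe them only.

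**Figure D1:**
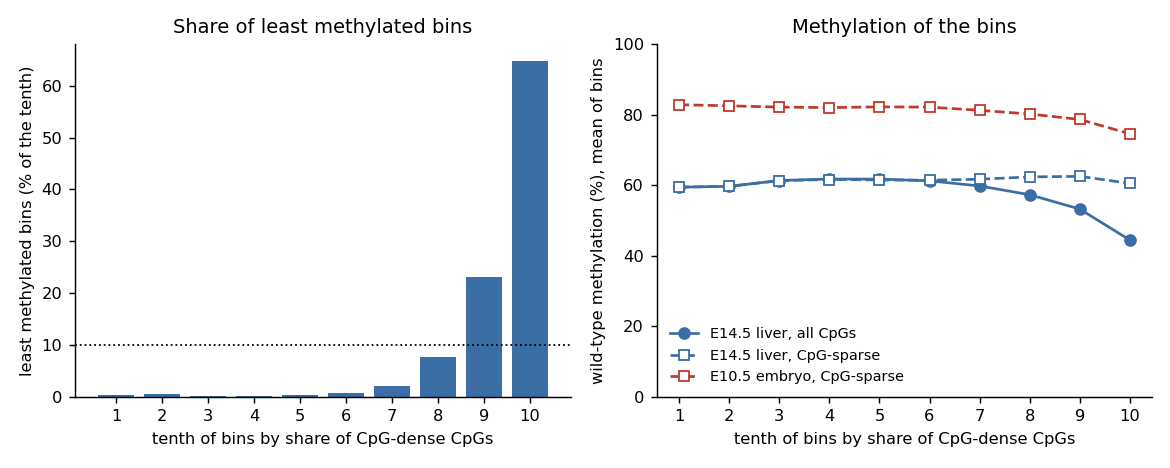
Left, percentage of bins (y axis) that are least methylated bins in each of 10 equal groups of all 23588 bins ordered by the share of CpG-dense CpGs (x axis, group 10 densest), with a dotted line at 10%. Right, mean wild-type methylation in percent for the same groups, over all CpGs or CpG-sparse positions only. Group 10 reaches 64.8% members, and the E14.5 line over all CpGs falls to 44.4% there while the CpG-sparse line stays at 60.5%.

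Without the CpG-dense positions, 999 of the 2358 members (42.4%) were still among the lowest 10% of bins, and 1359 were not. The 999 had a median of 158 CpG-dense positions and a mean of 1.90 protein-coding starts. The 1359 had a median of 207 and a mean of 2.60. Over CpG-sparse positions alone the members averaged 55.9% ± 1.71 (SD, n = 2) in wild-type E14.5 liver, against 61.8% ± 2.05 in the other bins. Over CpG-dense positions the means over bins were 6.46% ± 0.0546 in the members and 51.9% ± 0.875 in the other bins. These means give a bin with few CpG-dense positions the same weight as one with many. Taken over CpGs, those with 10 to 19 listed CpGs within 100 bp had 13.5% in the members and 41.6% in the other bins. Those with 20 or more had 1.26% and 2.06%. A group of 48 members had fewer than 20 CpG-dense positions, and 19 had none, while 21.9% of the other bins had none.

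Methylation was then read by local density. In the members, CpGs with 20 or more listed CpGs within 100 bp averaged 0.960% in wild types at E10.5, 1.26% at E14.5 and 1.30% at E18.5. Those with 10 to 19 averaged 14.1%, 13.5% and 14.4%. Those with 1 to 2 averaged 78.4%, 57.7% and 64.2%, so the tissues were far apart at isolated CpGs and within 1 point of each other at crowded ones. In the other bins the isolated class had 81.8%, 58.9% and 66.0%, close to the members. At 5 to 9 CpGs the members had 61.7%, 52.0% and 55.4% and the other bins 79.2%, 66.3% and 70.4%. At 10 to 19 the other bins had 46.5%, 41.6% and 43.6%. The bins thus differed both in level at the same density and in make-up. The class of 20 or more was 13.6% of the covered CpGs in the members and 3.10% in the other bins.

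**Figure D2:**
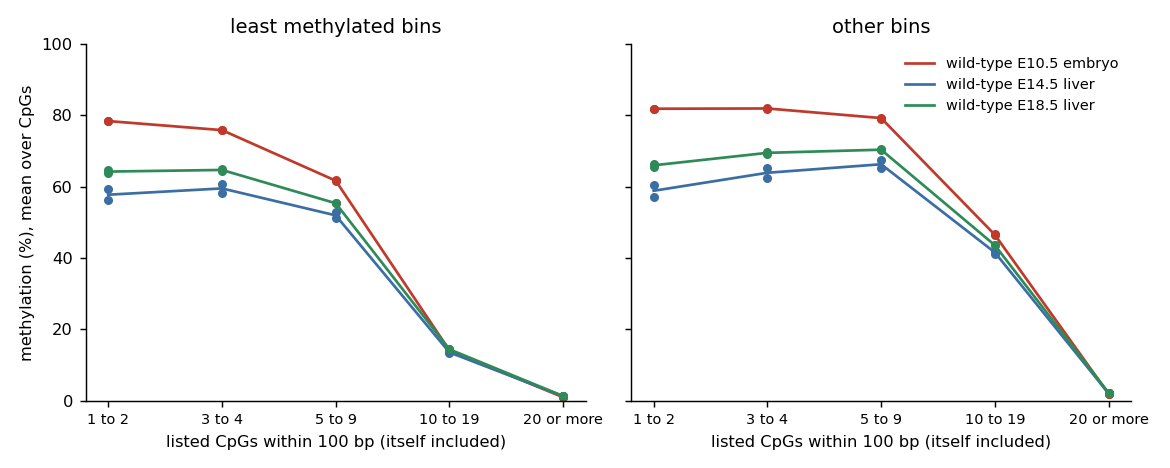
Methylation in percent (y axis) of CpGs grouped by the number of listed CpGs within 100 bp (x axis), in the least methylated bins (left) and the other bins (right), for wild-type samples. Points are the 2 samples of a stage and lines their means. At 20 or more CpGs all 3 lines in the left panel lie between 0.960% and 1.30%, and at 1 to 2 CpGs they are spread from 57.7% to 78.4%.

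Single CpGs showed the same pattern. In the members 34.5% of CpGs were below 20% methylation in wild types at E10.5, 35.6% at E14.5 and 34.4% at E18.5. The share above 80% was 42.9%, 13.8% and 21.1%. In the other bins the share below 20% was 8.39%, 9.82% and 8.86%. The unmethylated share was therefore much the same at each stage, and the change lay between high and intermediate values.

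The members were rich in genes. A protein-coding gene started in 2207 of them (93.6%), against 37.7% of the other bins, with a mean of 2.30 and 0.729 starts per bin. They held the starts of 5422 of the 20909 protein-coding genes placed in tested bins (25.9%), and 407 of 1230 long intergenic non-coding RNA genes (33.1%). Of 3741 pseudogenes, 542 started in members (14.49%). The members were 9.997% of all bins. The share of bins that were members was highest on chromosomes 19 (14.6%), 7 (14.4%) and 11 (13.5%) and lowest on chromosome 16 (7.46%).

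Gene families were read against that 25.9%. Developmental regulators stood far above it. Every one of the 40 annotated Hox gene entries, the homeobox genes that pattern the body axis, started in 1 of 9 member bins. Of the Sox, Fox and Wnt entries, 13 of 18, 22 of 38 and 14 of 19 started in members, with Sox4 annotated under a pair of identifiers. Clustered histone genes, which supply histones during DNA replication, had 64 of 67 starts in members, and clustered protocadherins, adhesion proteins of neurons, had 23 of 24. By bins these were 9 of 11 and 5 of 6, beside 2207 of the 10221 bins with a protein-coding start. Bins were chosen and not genes, so genes that share a bin are not separate observations. Further families were picked after their values were seen. Among these, all 8 Lhx, all 6 Dlx, all 5 Gata and all 4 Zic genes started in members, as did 8 of 9 Pax, 12 of 14 Nkx and 9 of 12 Tbx genes. Genes of the major histocompatibility complex named H2- had 27 of 36 entries, with H2-Q2 under a pair of identifiers. Nearer to the background were ribosomal protein genes with 54 of 135, potassium channels with 36 of 94 and zinc finger genes named Zfp with 100 of 358.

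Other families were below the background. Olfactory receptors had 29 of 1090 starts in members (2.66%) and vomeronasal receptors 16 of 269 (5.95%). Cytochrome P450 genes had 4 of 98, serpins 2 of 59, keratins 2 of 51 and major urinary proteins 0 of 14. The 2 keratins were Krt8 and Krt18, the pair expressed in simple epithelia. Among the globins, the alpha genes Hba-x, Hba-a1 and Hba-a2 lay in a member and all 5 beta-type genes did not.

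**Figure D3:**
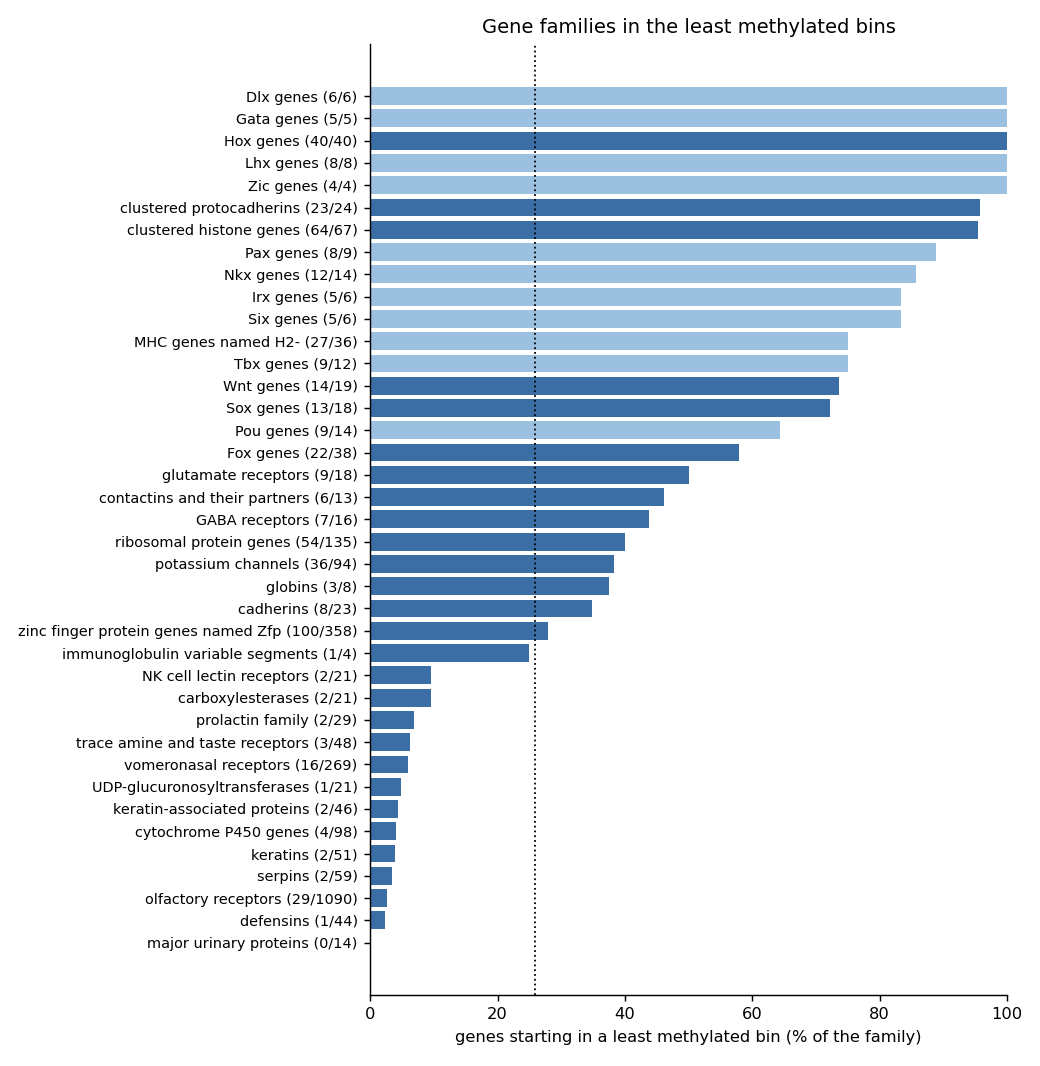
Percentage of each gene family (y axis, with the number in least methylated bins over the number in all tested bins) that starts in a least methylated bin (x axis). Dark bars are the listed families, pale bars those picked after their values were seen, and the dotted line is the 25.9% of all protein-coding genes. Hox genes stand at 100% and olfactory receptors at 2.66%.

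The 10 lowest members were led by homeobox clusters. The HoxA bin (chr6:52100001-52200000) held 2270 covered CpGs, 1363 of them CpG-dense. It read 1.82% and 2.03% in wild-type E10.5 embryos, 5.63% and 5.07% in E14.5 livers and 12.98% and 13.17% in E18.5 livers. The HoxD bin (chr2:74500001-74600000) read 2.89% and 2.77%, then 5.84% and 6.10%, then 5.56% and 5.70%. Both HoxC bins (chr15:102700001-102800000 and chr15:102800001-102900000) and the central HoxB bin (chr11:96100001-96200000) were among the 10, with wild-type E14.5 means of 9.78%, 6.46% and 11.01%. The Hox bins were low in the embryo. In wild-type E18.5 liver 4 of these 5 were higher than in the wild-type embryos, HoxA, HoxB (5.66% to 12.3%), HoxD and the HoxC bin of Hoxc4 to Hoxc9 (4.63% and 4.89% against 7.46% and 8.08%). The HoxC bin of Hoxc10 to Hoxc13 was at 9.54% and 10.7% in the embryo and 9.59% and 9.96% in the E18.5 livers.

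The rest of the 10 were of another kind. The bin of Cdkn2a and Cdkn2b, inhibitors of the cell cycle (chr4:88900001-89000000), had 9.38% ± 0.526, 8.55% ± 0.0172 and 8.54% ± 0.108 (SD, n = 2) in wild types at E10.5, E14.5 and E18.5. The bin of Zic1 and Zic4, regulators of the neural tube (chr9:91200001-91300000), had 12.6%, 11.1% and 11.5%, and that of the nuclear receptor gene Nr2f1 (chr13:78300001-78400000) had 13.9%, 12.1% and 12.99%. The remaining bins, chr4:145300001-145400000 and chr6:47600001-47700000, held no protein-coding start and only 163 and 161 covered CpGs, of which 115 and 103 were CpG-dense. Their CpG-sparse positions were at 57.5% and 49.2% in wild-type E14.5 liver, far above the 9.88% of the HoxA bin.

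At the cut the values ran on without a step. The 5 members just inside it, among them the bins of Zfp746, Hs3st2 and Col14a1, had 48.01% to 48.02%. The 5 bins just outside, among them those of Hpn, Kcnh7 and Nell1, had 48.02% to 48.03%.

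Within the HoxA bin the rise toward E18.5 liver was uneven. The 10 kb window with the start of Hoxa5 had 2.02% and 2.18% in wild-type E10.5 embryos, 8.91% and 7.79% in E14.5 livers and 29.7% and 29.1% in E18.5 livers. The window with the start of Hoxa9, from the same bin, had 2.59% and 3.15%, then 3.99% and 4.01%, then 5.07% and 5.82%. The windows of Hoxa2 and Hoxa4 reached 16.5% and 17.8% in wild-type E18.5 liver, while that of Hoxa10 and Hoxa11 had 1.74% and that of Hoxa13, in the next bin, 2.86%. The higher values were thus on the side of Hoxa2, Hoxa4 and Hoxa5. The highest window, between Hoxa2 and Hoxa4, had 46.8% but only 63 covered CpGs.

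**Figure D4:**
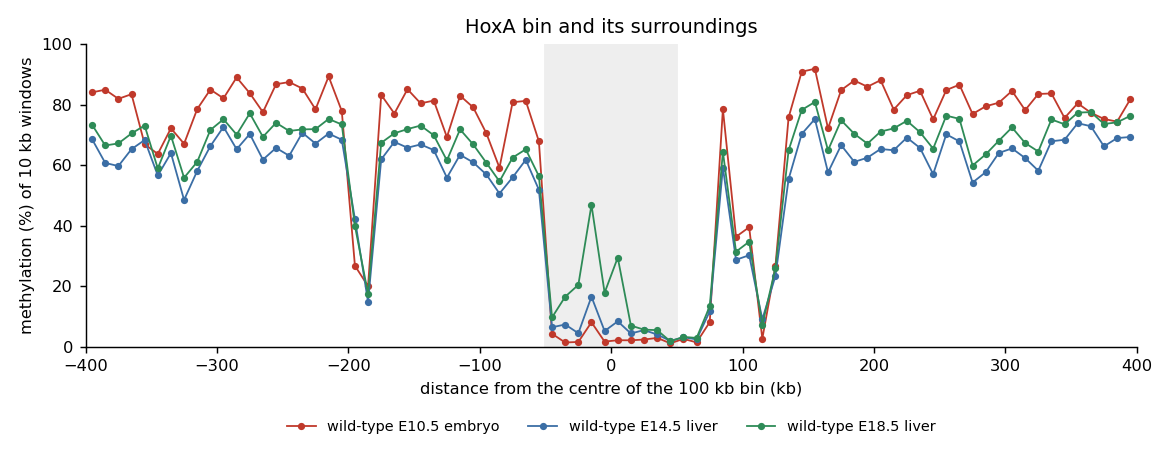
Methylation in percent (y axis) of 10 kb windows by distance in kb from the centre of the HoxA bin (x axis, bin shaded), as means of 2 wild-type samples per stage. Within the shaded bin the E10.5 line stays at 8.04% or below, and the E18.5 line reaches 46.8% on the left and falls to 1.74% on the right.

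Little RNA came from these clusters in E14.5 liver. Of the 40 Hox entries, 4 reached 1 CPM in the wild-type livers and 4 had no read in any library. Hoxa3 is annotated under a pair of overlapping identifiers and stands once in each of these counts. The highest was Hoxa5, with 1.43, 1.06 and 1.45 CPM per kb of exon in wild types and 1.20, 0.956 and 1.49 in mutants. None of the 12 Nkx, 6 Dlx, 5 Irx or 4 Zic genes in members reached 1 CPM. Other members were among the most active genes of the tissue. Hba-a1, an adult alpha-globin whose reads can be shared with its copy Hba-a2, had 12665 ± 3251 CPM per kb (SD, n = 3) in the wild-type livers, and other high levels were those of Car2 (1435), Slc4a1 (1043), Igf2 (934), Rbp4 (895), Ambp (812), Rps15 (765), Pfn1 (670) and Prdx2 (580). These include the carbonic anhydrase and anion exchanger of red cells and the secreted hepatocyte proteins Rbp4 and Ambp. Low methylation over a bin thus went with both silent and very active genes. Over all 5419 protein-coding genes in members with counts, 64.0% reached 1 CPM and 10.7% had no read, against 55.7% and 23.7% of 15458 genes in other bins. Among genes at 1 CPM or more the median level per kb was 7.46 to 8.03 in members and 7.58 to 8.10 in other bins across the wild-type libraries.

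Runs of 6 or more adjacent members numbered 6. The longest, of 7 bins (chr8:86900001-87600000), held 28 protein-coding starts, among them Cacna1a, Nfix, Klf1, Calr and Junb. Its mean was 44.9% in wild types at E10.5, 38.7% at E14.5 and 40.6% at E18.5. Klf1, which drives erythroid genes, had 327 CPM per kb in the wild-type livers, and Nfix 2.60. The run on chr13:23300001-23900000 held 39 starts, mostly of the Hist1 cluster, and had 33.4%, 27.1% and 29.2%. Runs with 34 starts around Foxa3 and Six5 (chr7:19400001-20000000) and 40 starts of the H2 region (chr17:33900001-34500000) had 39.99% and 41.8% in wild-type E14.5 liver. The run of Pcdhb genes (chr18:37100001-37700000) had 58.2%, 42.2% and 48.3%.

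The sixth run was CpG-poor. It lay in the immunoglobulin heavy chain variable region (chr12:116700001-117300000), with 13.8 CpG-dense positions and 0.333 protein-coding starts per bin, and had 65.8%, 44.5% and 50.2%. The gap between embryo and E14.5 liver was wider there than in the histone run, with no test.

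Low rank carried over to samples that had no part in the choice. In mutant E14.5 liver 2225 of the 2358 members (94.4%) were in that group's own lowest 10%. The numbers were 2111 in wild-type E18.5 liver (89.5%), 2058 in mutant E18.5 liver (87.3%), 1875 in wild-type E10.5 embryos (79.5%) and 1868 in mutant E10.5 embryos (79.2%). Over all CpGs the overlap was thus smallest with the whole embryo. The highest member in wild-type E10.5 embryos was at 77.8% and the 38.7th percentile of all bins. Over CpG-sparse positions the order turned. There 1332 members (56.5%) were in the lowest 10% of wild-type E10.5 embryos, 1220 (51.7%) in that of wild-type E18.5 liver and 999 in that of wild-type E14.5 liver, and in mutants the numbers were 1356, 1170 and 970.

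E18.5 livers were compared with E10.5 embryos, since neither was used to choose the bins. The choice was made on liver of another stage, however. Across all bins the choosing values correlated more with wild-type E18.5 liver (Spearman 0.94) than with wild-type E10.5 embryos (0.71). Choosing on liver can itself lower the chosen bins in liver relative to embryo, also when CpG-dense positions are left out. How much it did so was not tested. The members averaged 48.4% and 50.7% in wild-type embryos, 52.2% and 53.1% in mutant embryos, 43.2% and 43.4% in wild-type E18.5 livers and 46.7% and 43.0% in mutant E18.5 livers. All 4 livers were below all 4 embryos, and the difference was -7.06 points (exact two-sided permutation test, p = 0.0286, n = 4 each, the smallest p this design gives). With genotype kept fixed in the permutation, p was 0.0556, again the smallest possible. The other bins fell further, from a mean of 79.2% to 66.5%, so the members' fall was smaller by 5.68 points (exact two-sided permutation test, p = 0.0286, n = 4 each; 0.0556 with genotype kept fixed). The members also started from a lower level. The direction turned when CpG-dense positions were left out of both the choice of bins and the reading, where the chosen bins fell by more than the others (difference -1.09, same exact permutation test, p = 0.0286, n = 4 each). It did not turn when the 2358 members were held and only their CpG-sparse positions read (difference 2.77, same exact permutation test, p = 0.0286, n = 4 each). There the fall was 10.6 points, and that of the other bins 13.4.

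**Figure D5:**
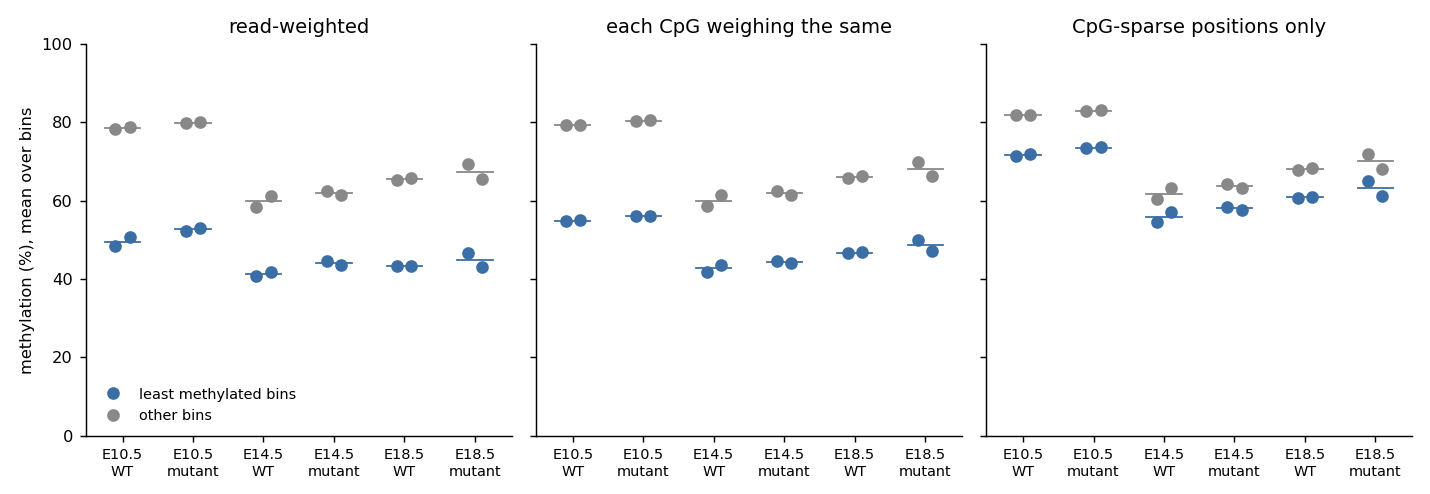
Mean methylation in percent over the least methylated bins (blue) and the other bins (grey) in each of the 12 bisulphite libraries (x axis, groups by stage and genotype), read-weighted, with each CpG weighing the same, and over CpG-sparse positions only. Points are libraries and lines group means. In the left panel the blue points run from 40.8% to 53.1% and the grey ones from 58.5% to 80.1%.

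In wild-type samples the members went from 49.6% ± 1.65 at E10.5 to 41.4% ± 0.765 at E14.5 and 43.3% ± 0.166 at E18.5 (SD, n = 2). The other bins went from 78.5% ± 0.292 to 59.8% ± 1.89 and 65.5% ± 0.337. The E14.5 value of the members chose them. In mutants, whose E14.5 livers did not, the members went from 52.2% and 53.1% in embryos to 44.6% and 43.5% at E14.5, which is -8.61 points (exact two-sided permutation test, p = 0.333, n = 2 each, the smallest p possible), while the other bins differed by -18.0. With each CpG weighing the same the members differed by -11.7 points, and over CpG-sparse positions by -15.5, where the other bins differed by -19.2.

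Against this fall, 40 of the 2358 members (1.70%) were higher on average in E18.5 liver than in E10.5 embryos, beside 0.226% of the other bins. The 5 with the largest rise were the bin of Jak3, Insl3, B3gnt3 and Fcho1 (chr8:74200001-74300000), both HoxA and HoxB bins named above, a bin with no protein-coding start (chr18:37900001-38000000) and the bin of Mark2 (chr19:7400001-7500000). The Jak3 bin had 37.2% and 39.3% in wild-type embryos, 47.6% and 46.5% in mutant embryos, 49.1% and 47.9% in wild-type E18.5 livers and 57.7% and 55.4% in mutant E18.5 livers. The groups did not overlap by genotype at either stage. RNA of Jak3, a kinase of cytokine signalling, was 2.85, 4.08 and 2.56 CPM per kb in wild-type and 3.18, 2.91 and 2.86 in mutant E14.5 livers. The window of 17 CpGs printed above, 204 bp from the start of B3gnt3, went the other way in wild-type samples, from 43.8% and 56.9% in embryos to 30.4% and 35.1% in E18.5 livers.

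The 5 members with the largest fall from E10.5 to E18.5 had 0 to 23 CpG-dense positions. The bin of Vmn1r228, Vmn1r229 and Vmn1r230 (chr17:20900001-21000000) went from 77.4% and 76.2% in wild-type embryos to 46.6% and 49.1% in E14.5 livers and 54.8% and 56.0% in E18.5 livers. Bins with Sirpb1a (chr3:15400001-15500000), Hnf4g (chr3:3500001-3600000), olfactory receptors and H2-M3 (chr17:37400001-37500000) and no protein-coding start (chr12:115000001-115100000) did likewise. The differences of these bins, which chose them, ran from -18.3 to -20.3 points.

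Homozygous Rlf mutants were then compared with wild types. In E10.5 embryos the members were higher in both mutants, at 52.7% ± 0.646 against 49.6% ± 1.65 (SD, n = 2), a difference of 3.12 points (exact two-sided permutation test, p = 0.333, n = 2 each, the smallest p possible). The other bins differed by 1.46. The members' excess over them was 1.66 points (exact permutation test, p = 0.333, n = 2 each), and it was 0.697 without wild-type replicate 1 and 2.62 without wild-type replicate 2. The relative depth of CpG-dense positions set wild-type replicate 1 apart. CpG-dense positions were read 1.59 and 1.43 times as deeply as CpG-sparse ones in the wild-type embryos and 1.43 and 1.35 times in the mutants. With each CpG weighing the same, the members had 54.9% and 55.0% in wild-type and 56.1% and 56.2% in mutant embryos, a difference of 1.22 points, and the excess over the other bins was 0.174.

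Single bins were tested too. With p-values adjusted over all bins by Benjamini-Hochberg, the quasi-likelihood test of edgeR called 473 of the 2358 members (20.1%) at an adjusted p under 0.05 in E10.5 embryos, against 12.7% of all 23588 bins. All 473 were higher in the mutants, as were 3004 of the 3006 bins called. For CpG-sparse positions the lowest 10% of bins were chosen anew on those positions, and 995 of these 2356 bins were members. Of the 2356, 895 were called (37.99%, against 38.01% of all 23562 bins), which does not measure the 2358 members themselves. Fitted with the replicate number as a block, which the labels do not give as a pairing, 1742 of the 2358 members were called (73.9%, against 42.4%). Limma on the read-weighted values called 356 members (15.1%) against 9.27% of all bins. Limma with each CpG weighing the same called 215 members (9.12%) against 14.8% of all bins, so under the same tool the higher share of the members was not seen with equal weighting. In edgeR the number of members called was 199 without wild-type replicate 1 (5.80% of all bins), 1722 without wild-type replicate 2 (33.8%) and 109 without mutant replicate 2 (1.98%). Of the members 198 were called with a difference above 5 points, against 1.77% of all bins. Members and other bins were not matched for reads or level in any of these shares. Of the members 77.5% held more covered CpGs than the median bin, against 46.9% of the other bins. In wild-type E10.5 replicate 1 the members averaged 48.4% and the other bins 78.3%.

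The largest difference was in the bin of Nlrp14 and Rbmxl2 (chr7:114300001-114400000), genes known from germ cells. It read 49.0% and 54.1% in wild-type and 70.5% and 68.0% in mutant embryos, a difference of 17.7 points (edgeR, adjusted p = 0.00102) that was 14.1 points with each CpG weighing the same. The same bin was called in E18.5 liver, at 46.3% and 45.3% against 61.3% and 58.3% (13.98 points, edgeR, adjusted p = 0.0276), and its E14.5 means were 40.8% and 53.6%. The window of 19 CpGs printed above, 144 bp from the start of Rbmxl2, read 30.4% and 39.3% in wild-type and 77.5% and 69.1% in mutant embryos. In E14.5 livers it had 24.5% and 25.2% against 53.5% and 54.2%, and in E18.5 livers 36.1% and 35.1% against 57.5% and 66.9%. In this window mutants were above wild types at all 3 stages without overlap. The E10.5 difference picked the bin, and the wild-type E14.5 livers chose the members. Only the E18.5 values were free of both choices. Neither Nlrp14 nor Rbmxl2 had a read in any of the 6 RNA-seq libraries.

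The other 4 members with the largest called differences in E10.5 embryos rose by 8.76 to 9.02 points. They were the bins of H2-T3 and Rpp21 (chr17:36300001-36400000), Irs2 (chr8:11000001-11100000) and Jak3, and one with no protein-coding start (chr12:23200001-23300000). The bin of Irs2, an adaptor of insulin signalling, read 48.0% and 52.6% in wild-type and 58.8% and 59.3% in mutant embryos (edgeR, adjusted p = 0.0276). With equal weighting these 4 differences were 3.82 to 8.30 points.

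In E18.5 livers the members had 43.3% ± 0.166 in wild types and 44.8% ± 2.63 in mutants (SD, n = 2), a difference of 1.49 points (exact two-sided permutation test, p = 1, n = 2 each). The mutants, at 46.7% and 43.0%, lay on both sides of the wild types. The difference rested on mutant replicate 1, since without it the value was -0.367, and it was 3.35 without mutant replicate 2. With each CpG weighing the same, both mutants were above both wild types, by 1.87 points (exact permutation test, p = 0.333, n = 2 each). Read-weighted, the other bins differed by 1.91, and members minus others was -0.425 (exact permutation test, p = 0.333, n = 2 each). With equal weighting the other bins differed by 2.01, and members minus others was -0.134 (exact permutation test, p = 1, n = 2 each). The direction turned without CpG-dense positions, to 0.116, or 0.242 with the members held. By the same edgeR test 2 members were called, of 4 bins in all (0.017%), with 1 higher in mutants (0.0127% of all bins), and limma with equal weighting called 1 (0.0127%). In edgeR 15 of the 2358 members had an unadjusted p under 0.05, beside 141 of all 23588 bins, a like share. Both shares were below the 0.05 expected without any difference, so the few calls do not show that the genotypes were alike. The first called was the Nlrp14 and Rbmxl2 bin, whose call was lost without either wild-type library, with the replicate block and on CpG-sparse positions alone. The other, chr17:39900001-40000000, was lower in mutants by 3.63 points (edgeR, adjusted p = 1.43e-14), but its libraries overlapped, at 38.6% and 35.8% in wild types and 30.03% and 37.1% in mutants. A p this small does not measure the spread between these libraries, so the call is not read as a genotype difference. Without wild-type replicate 1 no bin was called, and without wild-type replicate 2 the single bin called was a member. Without mutant replicate 1, 49 members were called (2.08%, against 0.767% of all bins), and without mutant replicate 2, 1947 (82.6%, against 85.6%).

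In E14.5 livers, where the wild types chose the bins, the members had 41.4% in wild types and 44.1% in mutants, and the other bins 59.8% and 61.9%. These are given without a test.

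Genes in the members were also compared between genotypes in E14.5 liver RNA. Of 3792 tested genes that start in members, 33 were called by edgeR's quasi-likelihood test at an adjusted p under 0.05 (0.870%), against 1.39% of all 14183 genes tested. There were 23 higher and 10 lower in mutants, with 0.698% and 0.691% of all genes called higher and lower. Same-numbered samples deviated together (r = 0.14, 0.221 and 0.415), but the labels give no pairing, and sex was shared by number. With the replicate number as a block the test called 88 members' genes, 65 higher and 23 lower, against 3.24% of all genes, 1.85% higher and 1.39% lower. DESeq2 called 42, 30 higher and 12 lower, against 1.81% of all genes, 1.03% higher and 0.783% lower. Without the block, leaving out mutant replicate 1, 2 or 3 gave 6, 19 or 17 calls (0.459%, 0.7997% or 0.732% of all genes tested). Leaving out wild-type replicate 1 or 3 gave 13 or 17 (0.654% or 0.732%). The median log2 fold change of the members' genes was 0.0019 and that of all genes -0.0017.

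Among the genes that rose was Sox9, a regulator of cartilage and bile duct cells, with 2.01, 1.30 and 1.39 CPM in wild-type and 3.94, 3.52 and 4.76 CPM in mutant livers (log2 fold change 1.39 ± 0.23 SE, edgeR, adjusted p = 0.0143). Egr1, an immediate early gene, rose by 1.07 on the log2 scale, with 21.7, 32.1 and 30.4 CPM against 68.4, 72.2 and 35.2. Vldlr, a lipoprotein receptor, had 12.4, 19.6 and 15.3 CPM in wild types and 30.8, 30.2 and 22.8 in mutants. Zbtb20, a repressor of the fetal liver gene Afp, had 6.18, 6.43 and 5.93 against 12.6, 9.83 and 9.67. Genes were named only where the groups did not overlap. Of the 10 genes named by size of rise, the rest were 3222401L13Rik, Gdpd3, Pcdh7, Eps8l2, Card6 and Scai, with log2 fold changes from 0.69 to 1.72. DESeq2 did not call 3222401L13Rik (adjusted p = 0.108) or Egr1 (adjusted p = 0.0944).

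The largest fall was that of Slc27a5, an enzyme of bile acid metabolism, with 27.7, 23.0 and 22.5 CPM in wild-type and 12.6, 12.1 and 11.1 CPM in mutant livers (log2 fold change -1.02 ± 0.12 SE, edgeR, adjusted p = 0.00147). Aqp9, a glycerol channel of hepatocytes, fell from 22.3, 19.2 and 22.3 CPM to 12.4, 10.1 and 12.6. Lcn2 and Elane, proteins of neutrophil granules, fell by 0.82 and 0.76 on the log2 scale. The 5 neutrophil markers summed to 477 to 708 CPM in wild-type and 436 to 510 CPM in mutant livers, with Elane, Ngp and Ltf called lower and none at 0. Trf of the hepatoblast list and Pf4 of the megakaryocyte list were called higher, and no gene of the erythroid, macrophage, endothelial, mesenchymal or brain lists was called. The hepatoblast markers summed to 59222 to 67539 CPM in wild-type and 69834 to 80890 CPM in mutant livers. The macrophage markers summed to 478 to 495 and 508 to 527 CPM, and the megakaryocyte markers to 432 to 482 and 521 to 592 CPM. These 3 sums did not overlap between genotypes and were higher in mutants, while the erythroid, neutrophil, endothelial, mesenchymal and brain sums overlapped. How often sums or single genes separate in this way over all genes was not computed, and a sum follows its most abundant genes. Called were 1 of 10 hepatoblast, none of 6 macrophage and 1 of 4 megakaryocyte genes, beside 1.39% of all genes tested. The part of cell make-up in the RNA differences between genotypes was not tested, and fewer cells of a type cannot be told apart from less RNA per cell. Prkd1, H2-Q6 (whose reads can be shared with near-identical H2-Q genes), Ankrd43, E130309D14Rik, Prkar2a and BC021614 were the other members' genes that fell, by 0.40 to 1.01 on the log2 scale. DESeq2 did not call Elane (adjusted p = 0.157) or Prkd1 (adjusted p = 0.0792).

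Of the methylation genes looked at (Dnmt1, Dnmt3a, Dnmt3b, Dnmt3l, Uhrf1 and Tet1 to Tet3), none started in a member. Dnmt3a, which sets methylation anew, rose from 98.7, 112 and 115 CPM in wild-type to 135, 139 and 131 CPM in mutant livers (log2 fold change 0.32, edgeR, adjusted p = 0.0319). Dnmt1, the copying enzyme, averaged 380 CPM in the wild types and had a log2 fold change of -0.02 (edgeR, adjusted p = 0.948). Dnmt3b, Uhrf1, Tet1, Tet2 and Tet3 were not called, with log2 fold changes from -0.17 to 0.39, and Dnmt3l had no read.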

How the data were processed

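Whole-genome bisulphite sequencing covered 12 samples and RNA-seq 6. For the first, the deposited values are counts of unconverted and converted reads at each CpG. The authors aligned with Bismark, running Bowtie2, to mm9 with FVB/NJ substitutions and removed PCR duplicates. The authors also deposited a rounded percentage per CpG, which was not used. For RNA-seq the authors deposited raw counts per Ensembl gene from TopHat and HTSeq. H3K4me1 data were not used here.

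Bins of 100 kb on chromosomes 1 to 19 took every CpG that reached 6 reads in each of the 12 libraries and needed at least 100 of them. The mean over bins of each library's percentage was compared by exact permutation over libraries. Single bins were tested with edgeR 4.0.16 on both counts with 1 intercept per library, or with limma 3.58.1 on logits. RNA-seq used edgeR with TMM and its default filter, with DESeq2 1.42.0 as the other tool, in R 4.3.3. The SE of a log2 fold change is its size divided by the square root of the edgeR F value. It was derived from the test and is no separate measure of spread. CPM are counts scaled to the library total, here divided by exon length in kb where levels of genes are compared. Scripts ran on python 3.11.15 and were tested on simulated data. Genes and exons were taken from GENCODE vM1 on NCBIM37, and 99.7% of its autosomal genes had counts. Sequences are from NCBIM37.

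Members, lists and tests were chosen with earlier results of these data known. Bins named were the 10 lowest, the 5 on either side of the cut, the longest runs and the 5 largest differences by stage or, among called bins, by genotype. Genes named were up to 10 called in each direction whose groups did not overlap, the 10 highest in wild types (not all reported here), families, marker lists and methylation enzymes. Same-numbered RNA samples moved together around the group means (r = 0.14, 0.221 and 0.415 for numbers 1, 2 and 3 over 14183 genes). The block rests on these same data, since the labels give no pairing, and sex was shared by number. Intervals were not computed, because bins hold many reads and the spread between samples is larger. Alternatives covered coverage, weighting, bin size and offset, the share kept, the libraries used to choose bins, thinning, tools, filters, sex and leaving out each library.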

Additional observations from a re-analysis of the deposited data

How the results depend on the processing

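The fall of the least methylated bins from E10.5 to E18.5 kept its direction under all 24 settings tried. All of these chose the bins on wild-type E14.5 liver. The fall was -14.1 when bins were chosen and read without CpG-dense stretches, and -10.6 with the members held. The smaller fall than in other bins kept its direction under 23 of 24. The exception was leaving out CpG-dense stretches when choosing and reading the bins (-1.09). With the replicate number as a block or permutation within genotype, -7.06 and 5.68 stood with p = 0.125 and 0.0556, the smallest these arrangements give. The E18.5 genotype difference of members minus others became 0.116 without CpG-dense stretches, and 0.242 with the members held. The mutant difference from E10.5 to E14.5 was -20.2 when bins were chosen and read without CpG-dense stretches, and -15.5 with the members held. Leaving out 1 library gave -9.17 to -8.05 for that difference, and -7.96 to -6.38 and 5.09 to 6.05 for the tissue differences. It gave 1.95 to 4.29 and 0.697 to 2.62 for the E10.5 genotype differences, lowest without wild-type replicate 1, and -0.367 (without mutant replicate 1) to 3.35 and -0.546 to -0.304 at E18.5.

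Members called in E10.5 embryos numbered 198 with a difference above 5 points (1.77% of all bins) and 215 with equal CpG weight (9.12%, 14.8%). They numbered 1742 with the replicate block (73.9%, 42.4%) and 109 to 1722 with 1 library left out (4.62% to 73.03%, 1.98% to 33.8%). At E18.5 they numbered 1, 1, 1 and 0 to 1947 in that order, and 1 by limma on bin fractions. Of all bins at most 0.0127% were called there, or up to 85.6% with 1 library left out. On CpG-sparse positions the lowest 10% were chosen anew, as 2356 bins of which 995 were members. Of these, 895 were called at E10.5 (37.99%, against 38.01% of all bins), and no bin was called at E18.5. Members' genes called numbered 100 without a filter (1.75%, against 2.42% of all genes), 88 with the replicate block (2.32%, 3.24%), 42 by DESeq2 (1.11%, 1.81%) and 6 to 34 with 1 library left out (0.156% to 0.885%, 0.459% to 1.56%). The causes were not tested. Same-numbered bisulphite samples share a number and, at E14.5, sex, and were not treated as pairs (r = 0.266, 0.0287 and -0.0234 across bins at E10.5, E14.5 and E18.5). Holding the members, and limma calls with equal CpG weight, were chosen after seeing the data. With 2 samples a group, the exact permutation test of a genotype difference in mean methylation cannot go below p = 0.333.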
